A study of Homo sapiens with 2 samples.

Results

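The LINC-named genes are long intergenic non-coding RNA genes (lincRNAs) that the naming committee has given a running number in place of a functional name. They were taken as every gene of the deposited table whose name starts with LINC and a digit and does not end as an antisense name, which gave 115 of 18781 genes. The RNA came from T47D, a line of luminal breast cancer cells with WT genotype, and both libraries are from lysates of cultured cells on protein A beads. One group is RNA held on beads with anti-IMP1 antibody, the other is RNA held on beads with normal IgG, and each is 1 library of this 1 cell line. The beads were washed and the RNA on them was sequenced (RNA immunoprecipitation, RIP), and no library of the input lysate was used here. The comparison asks which of these RNAs stayed on the IMP1 beads more than on the control beads.

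A lincRNA is transcribed by RNA polymerase II from its own promoter between protein-coding genes, and is often capped, spliced and polyadenylated like an mRNA. Most lincRNAs are made at low levels and in few cell types, and some act in the cytoplasm by holding proteins or small RNAs, while others host small RNAs or turn out to encode small proteins. IMP1 is an RNA-binding protein with KH domains that carries mRNAs such as that of beta-actin to the cell edge, and it is known to bind non-coding RNAs as well.

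A few members are hosts of microRNAs, and the mature sequences show which small RNAs share a gene with the RNAs measured here. In RefSeq on GRCh38.p14, 6 microRNA genes were found inside 4 LINC-named genes. Each sequence is written 5′ to 3′ with its seed, bases 2 to 8, in capitals.
hsa-let-7c-5p: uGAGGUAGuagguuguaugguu
hsa-miR-99a-5p: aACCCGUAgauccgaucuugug
hsa-miR-125b-5p: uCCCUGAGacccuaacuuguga
hsa-miR-9-5p: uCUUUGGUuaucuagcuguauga
hsa-miR-6516-5p: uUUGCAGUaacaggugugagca
hsa-miR-378g: aCUGGGCUuggagucagaag

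The 6 seeds all differ. In that build, let-7c lies at chr21:16539838-16539859, miR-99a at chr21:16539101-16539122 and miR-125b at chr21:16590253-16590274, on the plus strand inside LINC00478, whose current name is MIR99AHG. The plus strand also holds miR-9 at chr15:89368032-89368054, inside LINC00925 (MIR9-3HG), and miR-6516 at chr17:77089428-77089449, inside LINC00338. The minus strand holds miR-378g at chr1:94745880-94745899, inside LINC01057. These small RNAs were not measured here, and the values below are those of the host genes.

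Levels are in FPKM, a measure of sequenced fragments corrected for transcript length and for how much was sequenced, so that genes of different length can be compared within a library. The table lists a gene if it is above 0 in at least 1 library, so a member listed at 0 in one library was kept through the other. The FPKM do not come out as whole reads, so the depth of either library is unknown and no counting error can be given. With 1 library per condition no difference has a replicate check, and no test was run. Broadly expressed genes such as RAP1A, at 6.10 FPKM with IMP1, are also listed at 0 with IgG, so a listed 0 may be a failed estimate. No size of a fold is given against it. The counts past 2-fold below do include members listed at 0 in a library, and these calls rest on the 0.1 FPKM added to both values.

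Most LINC-named RNAs were seen with the IMP1 antibody, as were most genes of the table, and fewer were seen with IgG. Of the 115 members, 106 (92.2%, against 93.6% of all genes) were above 0 with IMP1. Above 0 with IgG were 47 (40.9%, against 61.3% of all genes). Both libraries held 38 members (33.0%, against 54.9% of all genes). The IMP1 library alone held 68 (59.1%, against 38.7% of all genes), and the IgG library alone held 9 (7.83%, against 6.40%). Antisense-named lncRNAs, of which the table has 309, had nearly the same split, with 28.8% in both, 61.8% in the IMP1 library alone and 9.39% in the IgG library alone. Protein-coding genes differed from both kinds of lncRNA, with 64.8% in both libraries and 30.8% in the IMP1 library alone.

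The members seen with IMP1 alone were mostly low. Their median was 0.218 FPKM, and 61 of the 68 were under 1 FPKM. The lowest value of any member above 0 in the IgG library was 0.0794 FPKM, and 12 of the 68 had an IMP1 value under it. The 5th lowest such value was 0.293 FPKM, and 42 of the 68 had an IMP1 value under that. The IMP1 library listed 63 of its 106 members at under 0.5 FPKM, and the IgG library 8 of its 47. When a member had to reach 0.5 FPKM to count as seen, 21 were seen with IMP1 alone, 17 with IgG alone and 22 with both.

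The share of members listed at 0 with IgG was about level up to 0.5 FPKM with IMP1 and fell above it. Of the 25 members under 0.1 FPKM in the IMP1 library, 20 (80.0%) were listed at 0 with IgG. Between 0.1 and 0.5 FPKM it was 31 of 38 (81.6%), and between 0.5 and 1 FPKM 10 of 18 (55.6%). From 1 to 3 FPKM the number was 5 of 12 (41.7%), from 3 to 10 FPKM 2 of 10 (20%), and none of the 3 members at 10 FPKM or more was listed at 0. All genes at these same levels had 75.7%, 70.9%, 52.3%, 32.9%, 17.0% and 5.37% listed at 0 with IgG.

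**Figure D1:**
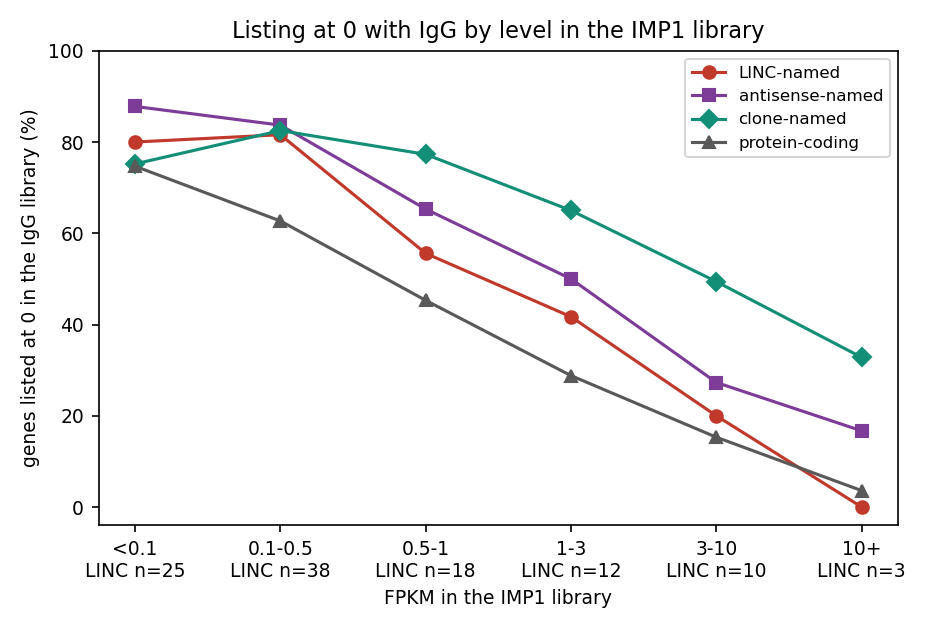
Share of genes listed at 0 in the IgG library (vertical axis, %) by their FPKM in the IMP1 library (horizontal axis, 6 bins), for LINC-named, antisense-named, clone-named and protein-coding genes. The LINC-named line drops from 80.0% in the lowest bin to 0 in the highest, which holds 3 members, and protein-coding genes drop from 74.7% to 3.6%.

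Of the 25 members that reached 1 FPKM with IMP1, 7 (28.0%) were listed at 0 with IgG. For all genes of that level the share was 21%. It was 18.0% for protein-coding genes, 41.9% for antisense-named lncRNAs and 56.8% for genes named after genomic clones. The members thus lay between protein-coding genes and the antisense-named and clone-named genes. The clone-named genes were taken by name only and may not all be lncRNAs. In reverse, of the 28 members that reached 1 FPKM with IgG, 1 (3.57%) was listed at 0 with IMP1, which lay between the shares of all genes (5.45%) and of protein-coding genes (2.43%). That member was LINC01019, listed at 0 with IMP1 and at 2.88 FPKM with IgG.

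LINC-named RNAs were scarce in both precipitates, and a few of them made up most of their sum. Among members above 0, the IMP1 values ran from 3.23e-06 FPKM, for LINC01140, to 47.4 FPKM, with a median of 0.316 FPKM and the middle 50% between 0.119 and 0.971 FPKM. The IgG values ran from 0.0794 to 235 FPKM, with a median of 1.27 FPKM and the middle 50% between 0.62 and 6.2 FPKM. Over all 115 members the median level was 0.267 FPKM with IMP1 and 0 with IgG, while protein-coding genes had 1.83 and 1.72 FPKM. With IMP1 25 members (21.7%) reached 1 FPKM, against 52.3% of all genes, and with IgG 28 (24.3%) did, against 46.4%. At 10 FPKM or more there were 3 members with IMP1 and 11 with IgG.

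The members summed to 169 FPKM with IMP1 and to 862 FPKM with IgG. As a share of all FPKM this is 0.0476% and 0.0664%. The 3 highest members held 50.7% of the sum with IMP1 and 64.9% with IgG. The order of the shares turned around when LINC00338 and LINC00910 were left out, with 165 FPKM (0.0466%) against 408 FPKM (0.0314%). Both are described with the small RNA hosts further on. Over the 38 members above 0 in both libraries the levels ranked only loosely alike, with a Spearman rho of 0.41, against 0.64 over the 10309 genes above 0 in both. This describes 1 pair of libraries, whose genes are not independent.

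**Figure D2:**
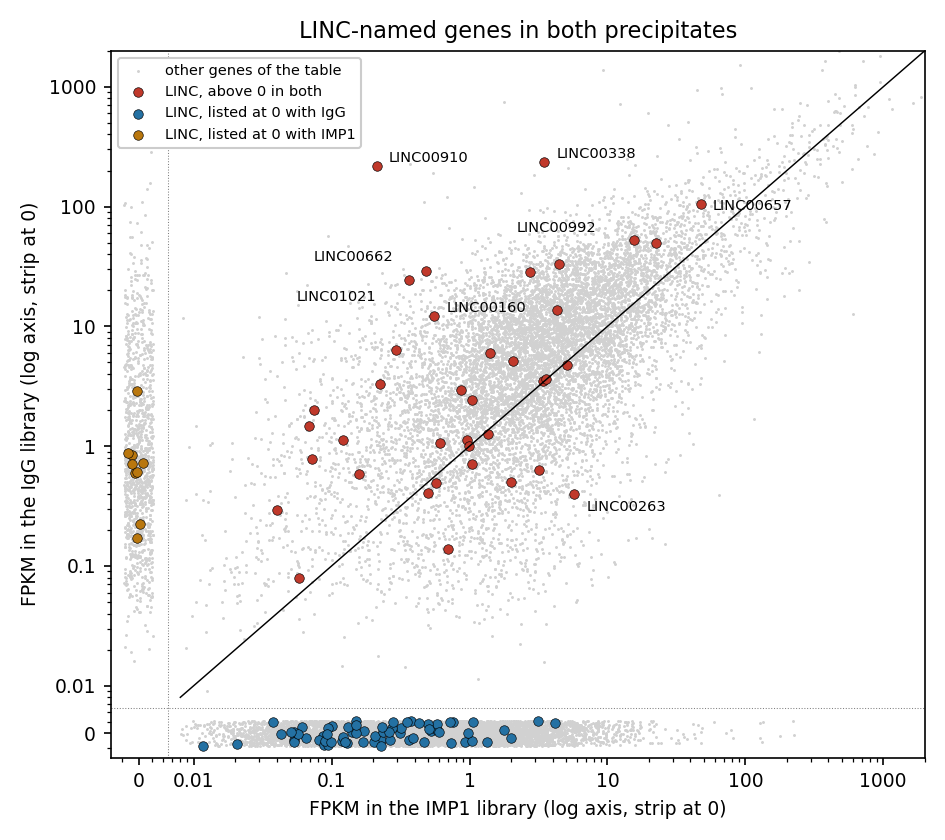
FPKM of each gene with IMP1 (horizontal, log axis) and with IgG (vertical, log axis), with a strip at each edge for genes listed at 0. Coloured points are the LINC-named genes and grey points all others, leaving out values beyond the range of the axes, of which LINC01140 is the one member. The other 67 members in the strip at 0 with IgG sit mostly under 1 FPKM, and the 9 in the strip at 0 with IMP1 are all at 2.88 FPKM or less.

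To set the libraries against each other, 0.1 was added to every FPKM value and the log2 of IMP1 over IgG was taken. Adding 0.1 pulls the ratios of low genes towards 0. On it 52 of the 115 members (45.2%) were at least 2-fold higher with IMP1, against 39.9% of all genes. At least 2-fold lower were 32 members (27.8%), against 29.9% of all genes, and 31 lay within 2-fold. Of the 52 higher members 48 were listed at 0 with IgG, so their ratios are set by the value added. Of the 32 lower members 9 were listed at 0 with IMP1.

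Members measured in both precipitates leaned the other way. Among these 38, 4 (10.5%) were at least 2-fold higher with IMP1, against 17.5% of all genes above 0 in both, and 23 (60.5%) were at least 2-fold lower, against 43.8%. The median log2 ratio of the 38 was -1.34, and that of all genes above 0 in both was -0.72. It was -1.12 for 89 antisense-named lncRNAs, -0.87 for the clone-named genes and -0.70 for 8881 protein-coding genes. The values of the IgG library are larger as a whole, with a sum of 1298363 FPKM against 353885 FPKM, and the level of the ratio depends on how the libraries are set against each other. Rescaling the IMP1 values to the median gene, to the same sum or to the sum without the 50 highest genes is a log2 shift of 0.79, 1.88 or 0.57. Protein-coding genes made up 34.2% of the IMP1 sum and 13.2% of the IgG sum, so the same sum is set mostly by other genes. The median of the 38 members then was -0.68, 0.38 or -0.88, beside -0.00, 1.0 or -0.20 for all genes above 0 in both. The sign of the median thus turned with the same sum, and under each of these scales it lay below that of all genes, which was not tested. The IgG library listed 8 of its 47 members at under 0.5 FPKM, and the IMP1 library 63 of its 106. Being above 0 in both therefore favours low members whose IgG value is the higher one. Genes of like level were not compared, and the part of this in the median was not tested.

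**Figure D3:**
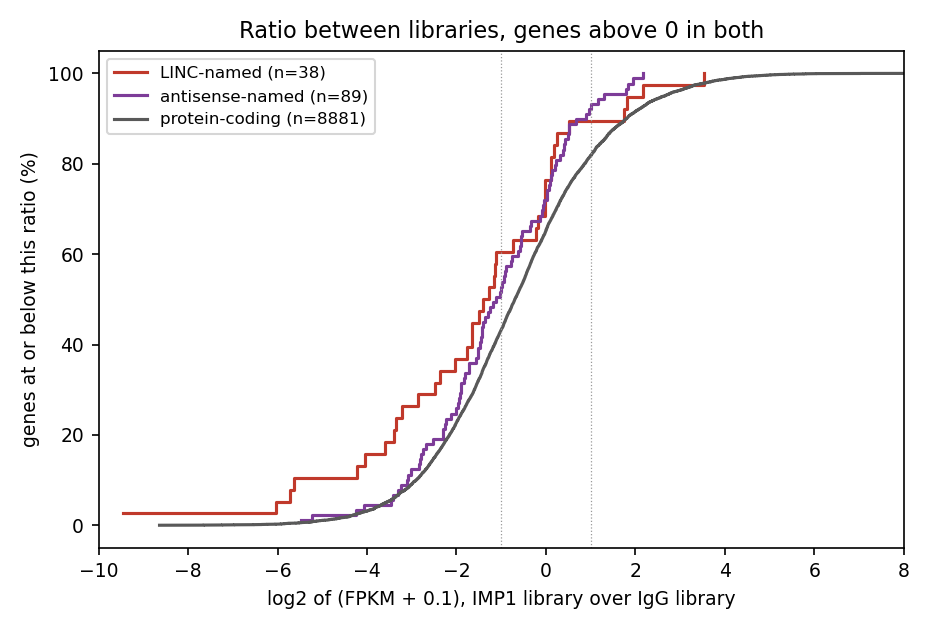
Cumulative share of genes (vertical axis, %) at or below each log2 ratio after adding 0.1 FPKM, IMP1 over IgG (horizontal axis), for genes above 0 in both libraries. The LINC-named step line (38 genes, median -1.34 as deposited) crosses its middle left of the line of protein-coding genes (median -0.70 as deposited). Rescaled to the median gene, the same sum or the sum without the 50 highest genes, the LINC median was -0.68, 0.38 or -0.88.

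The best measured members are the 14 with at least 1 FPKM in both libraries. None of the 14 was at least 2-fold higher with IMP1, against 11.5% of all genes at this level, 10 were at least 2-fold lower, against 44.0%, and 4 lay within 2-fold. Their median log2 ratio was -1.21, against -0.78 for all genes at this level. With the median gene 4 of the 14 were at least 2-fold lower, without the 50 highest genes 6 were, and none was higher on either scale. With the same sum, 4 of the 14 were at least 2-fold higher and 3 at least 2-fold lower. The 3 that stayed lower on that scale were LINC00338, LINC00969 and LINC00998.

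**Figure D4:**
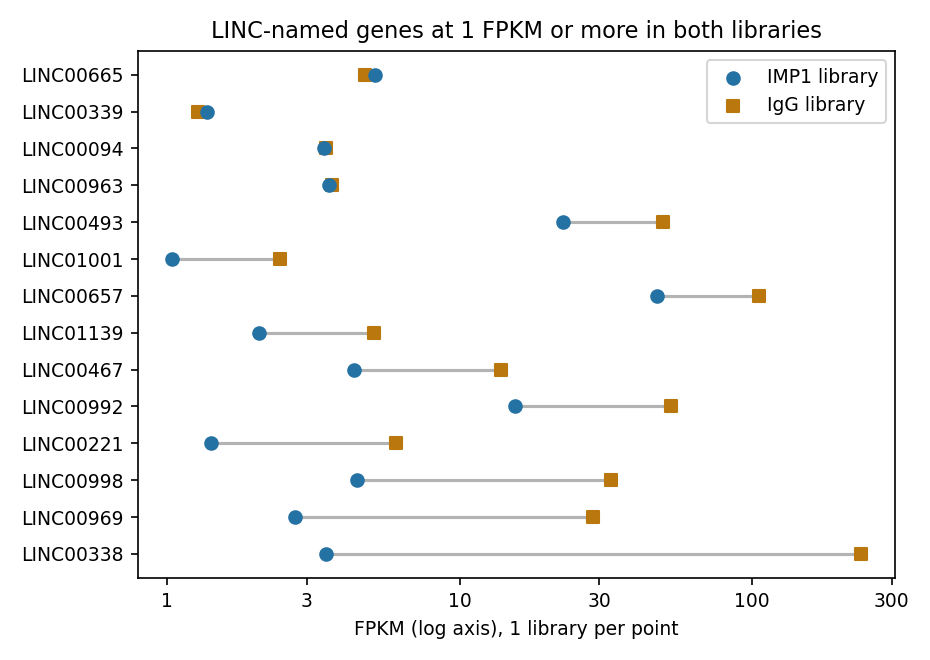
FPKM with IMP1 and with IgG (horizontal, log axis) for the 14 LINC-named genes at 1 FPKM or more in both, 1 library per point, with a line joining the points of a gene. As deposited, 12 of the 14 are lower with IMP1. Rescaling to the same sum would leave 4 lower. Rescaling to the median gene or to the sum without the 50 highest genes would leave 10 lower each.

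The highest member with IMP1 was LINC00657, now called NORAD, a cytoplasmic lncRNA that binds Pumilio proteins and guards chromosome stability. This gene (ENSG00000260032) lies on chromosome 20 from 34633544 to 34638882 in hg19, the build named in the submitters' notes. Its level was 47.4 FPKM with IMP1 and 106 FPKM with IgG, so that the log2 ratio was -1.16. It alone gave 28.1% of the IMP1 sum of all members, and its ratio was 0.72 when rescaled to the same sum. With the median gene and without the 50 highest genes it was -0.36 and -0.59. NORAD thus lay above its IgG value with the same sum only.

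The third highest with IMP1, after LINC00493 described further on, was LINC00992 (chromosome 5, 116751205 to 116881993), for which no function is given here. Its levels were 15.5 FPKM with IMP1 and 52.7 FPKM with IgG. The ratio was -1.76, or 0.11 with the same sum, and below 0 on the other scales. LINC00665 and LINC00963, both studied in several cancers, stood nearly level in the 2 libraries. LINC00665 had 5.13 and 4.75 FPKM, and LINC00963 had 3.57 and 3.65 FPKM, with IMP1 first. LINC00339 was also level, at 1.37 and 1.27 FPKM. With the same sum their ratios were 1.96, 1.82 and 1.91, so that level means level on the deposited scale only.

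Some LINC names are now known to belong to small proteins. RefSeq on GRCh38.p14 classes 9 of the members as protein-coding, 89 as lncRNA and 2 as pseudogenes, and 15 had no class there. The protein-coding members were among the higher LINC genes with IMP1, with a median of 1.77 FPKM against 0.273 FPKM for the 89, and 5 of the 9 were at 1 FPKM or more against 18 of the 89. Of the 9, 5 (55.6%, against 39.9% of all genes) were at least 2-fold higher with IMP1, each of them listed at 0 with IgG. Lower were 3 (33.3%, against 29.9%), and 1 lay within 2-fold.

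LINC00493, now SMIM26, encodes a small membrane protein of mitochondria. It had 22.6 FPKM with IMP1 and 49.4 FPKM with IgG. The ratio of -1.13 became 0.75 with the same sum and was below 0 on the other scales. LINC00998, now SMIM30, encodes another small membrane protein, and its levels were 4.46 and 32.9 FPKM. Its ratio of -2.85 stayed below 0 on every scale, at -1.0 with the same sum. LINC00116, now MTLN, encodes mitoregulin of the inner mitochondrial membrane, which takes part in fatty acid oxidation. It had 3.12 FPKM with IMP1 and was listed at 0 with IgG. LINC00984, now INAFM2, likewise had 1.77 FPKM and 0, while LINC00094, now BRD3OS, had 3.43 and 3.49 FPKM. LINC00483 (ANKRD40CL) was the reverse case, listed at 0 with IMP1 and at 0.872 FPKM with IgG. LINC00467, which RefSeq classes as lncRNA although a small protein of mitochondria has been described from it, had 4.34 and 13.8 FPKM. Its ratio was -1.64, and 0.21 with the same sum but below 0 on the other scales.

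Of 12 LINC genes studied in breast cancer or as estrogen receptor targets, 7 were in the table. At least 2-fold higher with IMP1 were 4 of them, all listed at 0 with IgG, 2 were lower, and LINC00511, at 0.0815 FPKM with IMP1 and 0 with IgG, lay within 2-fold. Over all genes 39.9% were higher and 29.9% lower, and so few genes say little about the list. LINC00885 was the highest of all members listed at 0 with IgG, at 4.17 FPKM with IMP1. LINC01016, which estrogen receptor alpha induces in breast cancer cells, had 2.01 FPKM and 0, and LINC00472 had 0.577 FPKM and 0. LINC00160 went the other way, with 0.554 FPKM with IMP1 and 12.1 FPKM with IgG, a ratio of -4.22 that was below 0 on every scale. LINC01139, also called LINK-A, had 2.05 and 5.10 FPKM. Its ratio was -1.27, or 0.55 with the same sum, and below 0 on the other scales.

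Of 20 LINC genes studied in other cancers, 9 were in the table, with 3 higher, 2 lower and 4 within 2-fold. Of the 3 higher, 2 were listed at 0 with IgG. The shares over all genes were 39.9% higher and 29.9% lower. LINC00152, now CYTOR, a lncRNA tied to the cytoskeleton and to cell migration, was among the few members higher with IMP1 and above 0 in both. It had 3.20 FPKM with IMP1 and 0.637 FPKM with IgG, a plain ratio of 5.03. LINC00662 had 0.482 FPKM with IMP1 and 28.8 FPKM with IgG, for a log2 ratio of -5.63. LINC01116 was level, at 0.567 and 0.491 FPKM. The set of 7 LINC genes of blood and immune cells had 1 in the table, LINC00861, at 0.0205 FPKM with IMP1 and 0 with IgG.

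The member with the largest ratio among those above 0 in both was LINC00263, now OLMALINC, on chromosome 10 from 102133372 to 102143125. It had 5.71 FPKM with IMP1 and 0.399 FPKM with IgG, which is 14.3 times as much and a log2 ratio of 3.54. LINC00152 followed with 2.16. LINC00847 came next, at 2.01 and 0.503 FPKM and a ratio of 1.81, and then LINC00680, at 0.693 and 0.138 FPKM and a ratio of 1.74. These 4 are all the members at least 2-fold higher among the 38, and each IgG value was under 1 FPKM. LINC00957, the next in order, had 1.05 and 0.707 FPKM and a ratio of 0.51. The remaining members high with IMP1 and listed at 0 with IgG included LINC00938, at 1.34 FPKM, and LINC00630, at 1.06 FPKM.

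At the other end, the 5 smallest ratios among the 38 were below 0 on every scale. LINC00910 (chromosome 17, 41447213 to 41466567) had 0.212 FPKM with IMP1 and 219 FPKM with IgG. Its log2 ratio was -9.45, and -7.96 with the same sum. LINC00338 (chromosome 17, 75082798 to 75213179), now the small nucleolar RNA host gene SNHG20, had 3.48 and 235 FPKM, a ratio of -6.03. LINC01021, now PURPL, a lncRNA that p53 induces and that restrains p53 levels, had 0.367 and 24.5 FPKM, a ratio of -5.72. LINC00662 and LINC00160, given above, complete the 5, with no gap after them. LINC00883, at 0.292 and 6.36 FPKM, and LINC00641, at 0.0744 and 2.01 FPKM, came close behind LINC00160, with ratios of -4.04 and -3.60. LINC00969 (MUC20-OT1), at 2.73 and 28.6 FPKM, and LINC00221, at 1.41 and 6.03 FPKM, had ratios of -3.34 and -2.03. LINC01001 had 1.04 and 2.43 FPKM, a ratio of -1.15, or 0.63 with the same sum and below 0 on the other scales.

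The extreme pair, LINC00910 and LINC00338, both hold a gene of another small RNA class in RefSeq. LINC00910 holds RNU2-4P, a pseudogene of the spliceosomal U2 RNA, and LINC00338 holds SCARNA16, a small Cajal body RNA that guides modification of spliceosomal RNA, besides miR-6516. The table has 11 genes named after U2 or its variants, all lower with IMP1, with a summed level of 177 FPKM against 24700 FPKM, and 10 of them were listed at 0 with IMP1. Another member with a U2 pseudogene inside, LINC00476, which holds RNU2-46P, had 0.0650 FPKM with IMP1 and was listed at 0 with IgG. RNU2-46P has values of its own, 0 with IMP1 and 61.3 FPKM with IgG. RNU2-4P and SCARNA16 have none among the named small RNAs counted here, so these cases are not alike. Of the 9 named small Cajal body RNAs of the whole table, with sums of 302 and 1040 FPKM, 4 were lower and 2 higher. Whether reads of these small RNAs entered the values of LINC00910 and LINC00338 was not tested.

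RefSeq places a small RNA gene or pseudogene inside 10 members. Of these, 2 were at least 2-fold lower with IMP1 and 4 higher, the 4 all listed at 0 with IgG. Of the 105 for which none was found, 30 were lower and 48 higher, while over all genes 29.9% were lower and 39.9% higher. The 105 include the 15 members without a RefSeq class, which could not be searched. Only 3 of the 10 were above 0 in both, namely LINC00910, LINC00338 and LINC00925. Of the known microRNA and small RNA hosts, LINC00478, with let-7c, miR-99a and miR-125b, had 1.05 FPKM with IMP1 and 0 with IgG. LINC00925, host of miR-9, had 0.502 and 0.407 FPKM, and LINC00461, known as host of another miR-9 gene but not matched in RefSeq and so counted among the 105, was listed at 0 with IMP1 and had 0.841 FPKM with IgG. LINC00632 was on the list, but no small RNA was found inside it in RefSeq, so it too is among the 105. It had 0.379 FPKM with IMP1 and 0 with IgG. The 5 genes of the list of 6 that were in the table thus included 2 higher, 2 lower and 1 within 2-fold, too few to set against the shares of all genes.

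Besides LINC01019, LINC00483 and LINC00461, the highest members listed at 0 with IMP1 were LINC00907, at 0.730 FPKM with IgG, and LINC00518, at 0.714 FPKM. The other 4 of these 9 lay between 0.171 and 0.604 FPKM.

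The position of a member does not always belong to it alone. For 34 of the 115 the deposited table gives the same locus to another gene, and strand use in the counting is not given in the sources used here. The values of these 34 are therefore uncertain. The other 81 have a locus of their own. LINC00338 shares its locus with SEC14L1, a protein-coding gene at 4.07 and 23.1 FPKM, LINC00094 with BRD3, at 2.16 and 14.7 FPKM, and LINC00969 with MUC20, at 0.157 FPKM and 0. LINC00467, LINC00662, LINC01001, LINC00472 and LINC00957 also share theirs. Among the 81 alone, 45 were seen with IMP1 alone (55.6%), 28 with both and 8 with IgG alone, and the median log2 ratio of the 28 was -1.21. The locus of these 28 had a median span of 19.6 kb and that of the 45 a median span of 11.9 kb.

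Markers of cell types differed between the libraries as well. Of 10 luminal breast genes all were at 1 FPKM or more in both libraries, with a summed level of 1240 FPKM with IMP1 and 571 FPKM with IgG. Only 5 of them were at least 2-fold higher with IMP1, none was lower, and the rest lay within 2-fold. Of 10 mesenchymal genes all were at least 2-fold lower with IMP1, 6 were listed at 0 there, and the sums were 2.61 and 229 FPKM. Of 6 blood cell genes 3 were in the table, with sums of 7.17 and 305 FPKM, nearly all of it CD74, at 6.42 and 305 FPKM, while PTPRC, CD3E and LYZ were not in it. All 6 interferon response genes were lower with IMP1, with sums of 128 and 1420 FPKM and 1 listed at 0 there. The part of these differences in the values of the LINC-named genes was not tested. Different RNAs may have stayed on the IMP1 and the IgG beads, cells of another type may have been present, or the cells of the line may have held more of these RNAs. These cannot be told apart here.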

How the data were processed

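RNA held on IMP1 antibody or IgG beads in T47D cells was sequenced, with 1 library per condition. The deposited values are in FPKM, 1 column for each library. Submitters' processing notes name build hg19, and the aligner, the FPKM software, the annotation and the use of strand are not given in the sources used here. Deposited fold changes, p-values and q-values compare the same libraries and were not used. The authors wrote 0 as 1e-05, which was read as 0, and 1 was added to each start, which counts from 0.

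Names were matched to current symbols for 106 of the 115 members, and RefSeq (GRCh38.p14) gave classes for 100, small RNAs inside members and microRNA sequences. The log2 ratio of FPKM + 0.1 was computed for 18781 genes and counted past 2-fold, with no test. Depth is unknown, so precision cannot be given. Members and lists were chosen with earlier results of these data known.

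Named genes are the 10 highest members of each library, those at 1 FPKM or more in both, the 5 largest and 5 smallest ratios above 0 in both, the 5 highest listed at 0 in the other library, and list members at 0.5 FPKM or more. LINC01140, LINC00630, LINC00632, LINC00476, LINC00641, LINC00883, LINC00511, LINC00861, LINC01057, LINC00623 and LINC00869 were named after their values were seen. Alternatives were other pseudocounts, filters, detection limits, thresholds, rescalings and member rules. Counting was tested only on simulated 4-fold changes of genes at 1 FPKM or more with IgG, which does not cover members listed at 0. Tools were Python 3.11.15 with pandas 2.3.3, numpy 2.4.6, matplotlib 3.10.9 and scipy 1.17.1.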

Additional observations from a re-analysis of the deposited data

How the results depend on the processing

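No paired analysis was possible because nothing was tested, and no replicate exists to leave out. The 52 members at least 2-fold higher with IMP1 became 10 with a pseudocount of 1, 21 with at least 0.5 FPKM in a library, 4 above 0 in both libraries and 28 at 4-fold. It rose to 71 with a pseudocount of 0.01 and to 63, 78 and 61 when rescaled to the median gene, the same sum or the sum without the 50 highest genes. The 32 lower became 18 with a pseudocount of 1 and 21 at 4-fold. Higher members thus made up 61.9% of those past 2-fold, but 35.7% with a pseudocount of 1, 14.8% above 0 in both and 42.0% with the filter at 0.5 FPKM, and 72.4%, 78.0% and 68.5% under these rescalings. Over all genes the share was 57.2%, with 43.8% at a pseudocount of 1 and 69.9%, 83.1% and 66.4% under the rescalings, so that the members lay above all genes as deposited and below them with a pseudocount of 1 and with the same sum. The median log2 ratio above 0 in both, -1.34, was -0.84 with a pseudocount of 1, -1.49 with 0.01, -0.68 with the median gene, 0.38 with the same sum, -0.88 without the 50 highest genes in the sum, and -1.21 with the RefSeq class lncRNA only. Of 38 members, 16 were below 0 with the same sum, against 29 as deposited and 24 under each of the other rescalings. With a detection limit of 0.5 FPKM the 68 members seen with IMP1 alone became 21, the 38 seen with both became 22 and the 9 seen with IgG alone became 17. Alternatives chosen after seeing the data gave 45 seen with IMP1 alone among members with a locus of their own, and a median of -1.21 both there and without LINC00338 and LINC00910. Each count not given here lay within 1.5 times its reported value. Apart from what a filter, limit or scale changes by its construction, the cause was not tested. The unknown depth limits every statement on members listed at 0.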

Other observations

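Of the 106 members matched to a current symbol, 29 now carry another name than in the table, and 28 of these are no longer LINC names. The identifier deposited as LINC00869 now has the symbol LINC00623, while the identifier deposited as LINC00623 has none, so the values of both names are uncertain. In the table LINC00869 had 0.267 FPKM and LINC00623 had 0.757 FPKM in the IMP1 library, and both were listed at 0 with IgG.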
